A study of Mus musculus with 12 samples.

Results

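RNA of long-term haematopoietic stem cells (LT-HSC) from mouse fetal liver was compared between Setdb1 mutants and controls. The comparison took 6 of the 12 libraries of the study, the 3 titled as LT-HSC mutants and the 3 titled as LT-HSC controls, with all 24054 genes of their tables. The other 6 libraries hold multipotent progenitors (MPP) of the same genotypes. They are used only for values set beside those of LT-HSC and for a test of the difference. The mutant genotype was Setdb1 p/p;vav-cre. Control 1 carried Setdb1 +/p;+/+ without the Cre transgene, and controls 2 and 3 carried Setdb1 +/p;vav-cre, so every animal had at least 1 p allele. What the p allele is cannot be read from the labels. The vav-cre transgene is known to express Cre recombinase in blood cells. Which other cells of the same liver keep their Setdb1 alleles was not measured here. All samples came from E13.5 embryos. The LT-HSC were sorted as LSK cells (lineage negative, Sca1 positive, Kit positive) that were CD150 positive and CD48 negative, with 500 to 1000 cells a sample. For each MPP sample 20000 cells were sorted.

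SETDB1 is a methyltransferase that adds 3 methyl groups to lysine 9 of histone H3 (H3K9me3), a modification found where chromatin is silenced. In embryonic and germ cells it is known for silencing endogenous retroviruses, through zinc finger proteins and their partner TRIM28, and for silencing genes normally used in the germline. LT-HSC sit at the top of the blood lineages, and in fetal liver they divide and expand in number beside hepatoblasts, macrophages and a large mass of developing red cells.

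Setdb1 transcripts were at 87.5, 76.7 and 112 CPM (counts scaled to a common library total) in controls 1 to 3 and at 69.2, 73.0 and 86.1 CPM in mutants 1 to 3. The groups overlapped, with a log2 fold change of -0.27 ± 0.165 (SE; edgeR's quasi-likelihood test, adjusted p = 0.651, n = 3 and 3). A count over the whole gene does not show which exons were read, and the labels do not name the deleted part, so this value does not check the genotype labels. The surface markers of the sort could be checked. Slamf1, which encodes CD150, was at 34.7 to 41.6 CPM in the 6 LT-HSC libraries and at 1.09 to 2.39 CPM in the 6 MPP libraries. Cd48 was at 10.8 to 30.4 CPM in LT-HSC, highest in mutant 2, and at 150 to 259 CPM in MPP. By Slamf1 and Cd48, both groups of LT-HSC libraries therefore carried the RNA of their gate. The RNA of Sca1 and Kit, the other positive markers of the sort, overlapped between LT-HSC and MPP.

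Of 12847 genes with enough counts to be tested, 54 (0.42%) passed an adjusted p of 0.05 (edgeR's quasi-likelihood test, Benjamini-Hochberg adjustment over all tested genes). They were 33 genes higher in the mutants (0.257%) and 21 lower (0.163%), and 30 of the higher and 20 of the lower differed by at least 2-fold. The median log2 fold change of all tested genes was 0.03. In all 54 genes the 3 mutants did not overlap the 3 controls. The same lack of overlap held in 8.41% of the tested genes with the mutants higher and in 8.17% with the mutants lower. At an unadjusted p under 0.05, 4.68% of the tested genes were higher and 4.83% lower, and these shares are the background against which the lists further on are read. The labels do not say whether the 3 samples of a group came from separate fetuses. The controls were not all from 1 embryo, since control 1 lacks the Cre that controls 2 and 3 carry, and Ddx3y, a gene of the Y chromosome, was at 93.0 CPM in control 2 and at 0 in controls 1 and 3. Each p-value reflects no more than the spread among these libraries, and for the mutants that spread may be technical.

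**Figure D1:**
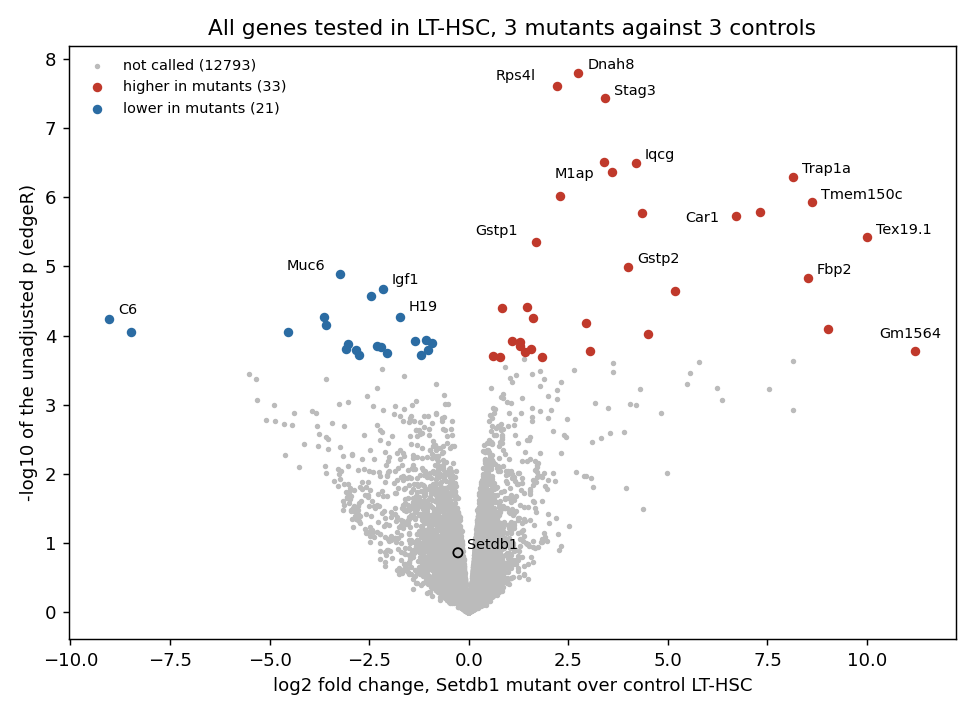
Each point is a gene tested in LT-HSC, with its log2 fold change on the x axis and the negative log10 of its unadjusted p on the y axis. The 33 genes called higher are red and reach larger folds and smaller p than the 21 called lower, in blue, and Setdb1 (open circle) lies among the genes not called.

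The mutants also differed more among themselves than the controls did, with a chi-square per gene of 24.8 to 47.2 between pairs of mutants and of 13.3 to 15.6 between pairs of controls. The first principal component held 42.9% of the variance and placed the controls at -21.19 to -38.49, mutant 2 at 2.55, and mutants 1 and 3 at 34.69 and 59.36. The second held 23.6% and set mutant 2 apart at -55.23. In the mutants Ddx3y was at or near 0. The depth was alike, with 10119416 (mutant 2) to 14113198 (control 1) expected counts in a library. The number of calls moved with each library left out. It was 14, 15 and 13 without control 1, 2 or 3, 17 without mutant 1, 102 without mutant 2 and 47 without mutant 3. All 54 genes kept their direction in each of these fits, and 12 of the 33 higher genes and 0 of the 21 lower genes stayed called in all 6.

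The genes that rose include some known from the germline. The promoters of 5 of them, picked after their values were seen, are shown here because these genes rose together in the mutants from low or absent expression, followed by that of the axonemal gene Dnah8, the gene with the smallest p. Each line is the 300-base window from 250 bases before to 50 bases after a RefSeq start of the gene (build GRCm38.p6), 5′ to 3′ on the gene's strand. For Stag3, M1ap, Gm1564 and Iqcg the RefSeq gene model begins further upstream than the start used here. Capitals mark matches to TCCCGC (the core of an E2F site) or CACGTG (an E-box), on either strand. Both motifs are known from promoters of germline genes that repressor complexes keep silent in somatic cells.
Stag3, chr5:138280259-138280558, plus strand: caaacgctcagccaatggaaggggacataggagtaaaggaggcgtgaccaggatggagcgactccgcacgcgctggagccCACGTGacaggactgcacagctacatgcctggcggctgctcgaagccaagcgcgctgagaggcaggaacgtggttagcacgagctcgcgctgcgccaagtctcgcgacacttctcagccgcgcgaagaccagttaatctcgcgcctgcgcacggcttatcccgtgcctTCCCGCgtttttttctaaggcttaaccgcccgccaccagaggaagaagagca
M1ap, chr6:82946672-82946971, plus strand: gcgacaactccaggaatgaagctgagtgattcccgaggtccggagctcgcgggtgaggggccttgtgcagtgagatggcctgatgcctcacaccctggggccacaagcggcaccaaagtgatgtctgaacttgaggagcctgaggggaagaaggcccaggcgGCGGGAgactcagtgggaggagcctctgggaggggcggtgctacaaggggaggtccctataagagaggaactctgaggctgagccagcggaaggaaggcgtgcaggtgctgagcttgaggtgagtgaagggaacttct
Gm1564 (Meioc in RefSeq), chr11:102665335-102665634, plus strand: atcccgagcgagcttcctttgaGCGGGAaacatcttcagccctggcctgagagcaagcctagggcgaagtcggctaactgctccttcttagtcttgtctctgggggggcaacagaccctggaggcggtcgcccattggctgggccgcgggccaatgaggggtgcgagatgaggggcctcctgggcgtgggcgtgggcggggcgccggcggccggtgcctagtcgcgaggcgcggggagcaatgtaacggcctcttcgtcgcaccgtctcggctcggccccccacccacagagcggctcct
Tex19.1, chr11:121145893-121146192, plus strand: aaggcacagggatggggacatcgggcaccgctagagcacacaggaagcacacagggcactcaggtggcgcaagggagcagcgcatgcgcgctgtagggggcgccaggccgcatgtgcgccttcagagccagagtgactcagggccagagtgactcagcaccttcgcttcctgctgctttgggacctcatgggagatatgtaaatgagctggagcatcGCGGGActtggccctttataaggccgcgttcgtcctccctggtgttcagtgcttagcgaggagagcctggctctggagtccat
Iqcg, chr16:33056137-33056436, minus strand: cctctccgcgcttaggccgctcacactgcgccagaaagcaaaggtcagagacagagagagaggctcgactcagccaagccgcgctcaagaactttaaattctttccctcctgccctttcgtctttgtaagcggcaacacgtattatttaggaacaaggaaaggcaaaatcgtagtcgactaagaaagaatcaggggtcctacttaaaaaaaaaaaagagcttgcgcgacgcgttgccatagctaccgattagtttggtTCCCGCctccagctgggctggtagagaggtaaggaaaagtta
Dnah8, chr17:30626686-30626985, plus strand: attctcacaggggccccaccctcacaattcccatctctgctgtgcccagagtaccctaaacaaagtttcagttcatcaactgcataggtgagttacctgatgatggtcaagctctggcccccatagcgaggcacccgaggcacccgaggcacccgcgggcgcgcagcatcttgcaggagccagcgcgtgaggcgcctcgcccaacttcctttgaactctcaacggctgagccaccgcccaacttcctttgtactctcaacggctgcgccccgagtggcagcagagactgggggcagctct

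The promoters of Stag3, M1ap, Gm1564, Tex19.1 and Iqcg each held 1 TCCCGC match, that of Stag3 held 1 CACGTG match as well, and that of Dnah8 held neither. The windows of Trap1a, Prr19 and Zcwpw1, other germline genes that rose, are not printed here and held neither TCCCGC nor CACGTG. No difference in these letters between sets of genes was tested. TCCCGC stood in 10 of the 30 higher genes with a RefSeq window (33.3%), in 3 of 17 lower genes (17.6%) and in 35.8% of the 10277 tested genes with a window. CACGTG stood in 10% of the higher, 11.8% of the lower and 10.3% of all tested genes. AGATAA, the letters of a GATA site, stood in 13.3% (4 genes), 23.5% (4 genes) and 6.57%. The observed over expected CpG ratio of the window had a median of 0.588 in the higher genes and 0.35 in the lower genes, against 0.761 over all tested genes. It spanned 0.427 (M1ap) to 1.06 (Stag3) among the 6 promoters printed here.

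Genes of meiosis were among those that rose. Stag3, the cohesin subunit that holds sister chromatids together in meiosis, was at 14.4, 17.9 and 13.8 CPM in control libraries against 172, 143 and 180 CPM in mutant ones, a log2 fold change of 3.43 ± 0.16 (SE; edgeR, adjusted p = 0.00016). M1ap, which male germ cells need to complete the first meiotic division, was at 4.75, 4.69 and 5.37 CPM in control libraries against 50.5, 51.5 and 79.6 CPM in mutant ones (log2 fold change 3.61 ± 0.233, adjusted p = 0.000935). Stag3 rose by similar amounts in all 3 mutants, and M1ap was highest in mutant 3. Gm1564, the gene RefSeq calls Meioc, which sustains meiotic prophase, had 0 counts in all 3 controls and 10.3, 14.8 and 46.6 CPM in the mutants, at least 340-fold higher against a floor of 3 counts over the group (adjusted p = 0.0456). Its placeholder symbol falls outside the naming rule, and it was named after its values were seen. Prr19, which acts in meiotic crossing over, was at 0.413, 0.692 and 0.70 CPM against 3.34, 5.48 and 6.28 CPM (log2 fold change 3.05 ± 0.45, adjusted p = 0.0456, and 0.0563 with the replicate number as a block). Zcwpw1, a reader of histone methylation at meiotic recombination sites, was at 24.4, 19.5 and 16.0 CPM against 46.3, 47.4 and 54.3 CPM (1.30 ± 0.188, adjusted p = 0.0456, and 0.0536 with the block). Stag3 and M1ap stayed called in all 6 leave-one-out fits. Gm1564 stayed called in 1 of them, with adjusted p up to 0.159, and Prr19 and Zcwpw1 in none, with adjusted p up to 0.21 and 0.231.

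The list of meiosis and synapsis genes had 32 members in the tables, of which 17 had enough counts to be tested. Of these 17, 3 rose (Stag3, M1ap and Gm1564) and none fell, and 8 were higher at an unadjusted p under 0.05 and 0 lower. The median log2 fold change of the 17 was 0.86. It was 0.18 without mutant 3 and at least 0.65 with any other library left out. A member silent in the controls, such as Gm1564, passed the filter on low counts through the mutants alone. Members silent in both groups were left out, so these counts and the median can lean upward. The same holds for the other germline lists. Among those not called, Dmc1, the recombinase of meiotic strand exchange, was at 3.03, 3.92 and 2.49 CPM in control libraries against 9.60, 9.90 and 13.0 CPM in mutant ones (adjusted p = 0.0678). Tex15, a germ cell gene of meiotic repair and silencing, was at 1.10, 0.615 and 0.233 CPM against 4.63, 6.11 and 22.1 CPM (adjusted p = 0.124). In both genes the groups did not overlap, and mutant 3 was highest.

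Germline genes outside meiosis rose too. Tex19.1, a germ cell and placenta gene known for restraining retrotransposons, had 3 counts over the 3 controls and 51.3, 54.2 and 154 CPM in mutants 1 to 3 (adjusted p = 0.00374), a ratio of 1220 with a 95% interval of 417 to 5919 from counting error only. Its paralog Tex19.2, 27466 bases away, was read at 0.207 CPM in control 1 and at 0 in the other controls, against 1.29, 2.11 and 3.61 CPM in mutant libraries (adjusted p = 0.138). Reads of the 2 paralogs may be shared between them in the counting. Trap1a, an X-linked antigen gene of testis and tumours, was at 0.758, 1.0 and 0 CPM in control libraries against 180, 130 and 199 CPM in mutant ones, a log2 fold change of 8.14 ± 0.537 (adjusted p = 0.000935). Of the X-linked germline antigen list, 29 genes in the tables and 6 tested, Trap1a was the 1 called, and the median was 0.68 (0.37 without mutant 3 and 1.19 without control 3). The list of piRNA and germ granule genes, which silence transposons in germ cells, had 10 tested members with 1 called (Tex19.1), 3 higher and 0 lower at an unadjusted p under 0.05, and a median of 0.33 (0.21 without mutant 2 and 0.52 without mutant 3). Another X-linked gene, the placeholder 4930550L24Rik, was at 0.207, 0.538 and 0 CPM against 42.0, 37.2 and 43.3 CPM (7.31 ± 0.564, adjusted p = 0.00201).

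Genes of the sperm flagellum and its axoneme, the microtubule core that dynein arms bend, included Dnah8, with the smallest p of all. Dnah8, a dynein heavy chain of the flagellum, was at 21.1, 21.7 and 22 CPM in control libraries against 151, 133 and 152 CPM in mutant ones, a log2 fold change of 2.75 ± 0.115 (adjusted p = 0.000158). Each group's libraries lay within a narrow range. Iqcg, an IQ motif protein of the flagellum, was at 2.96, 2.15 and 3.81 CPM against 55.7, 64.2 and 45.2 CPM (4.2 ± 0.261, adjusted p = 0.000824). These were 2 of 18 tested members, and the median of the list was 0.10 (-0.02 without control 1 and 0.20 without control 2). The other 16 were not called. Spag17, an axonemal protein, was at 2.07, 3.38 and 2.10 CPM against 4.89, 5.79 and 4.40 CPM (adjusted p = 0.42). Among the 18 dyneins tested, Dnah8 was the 1 called, and the median was 0.04.

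**Figure D2:**
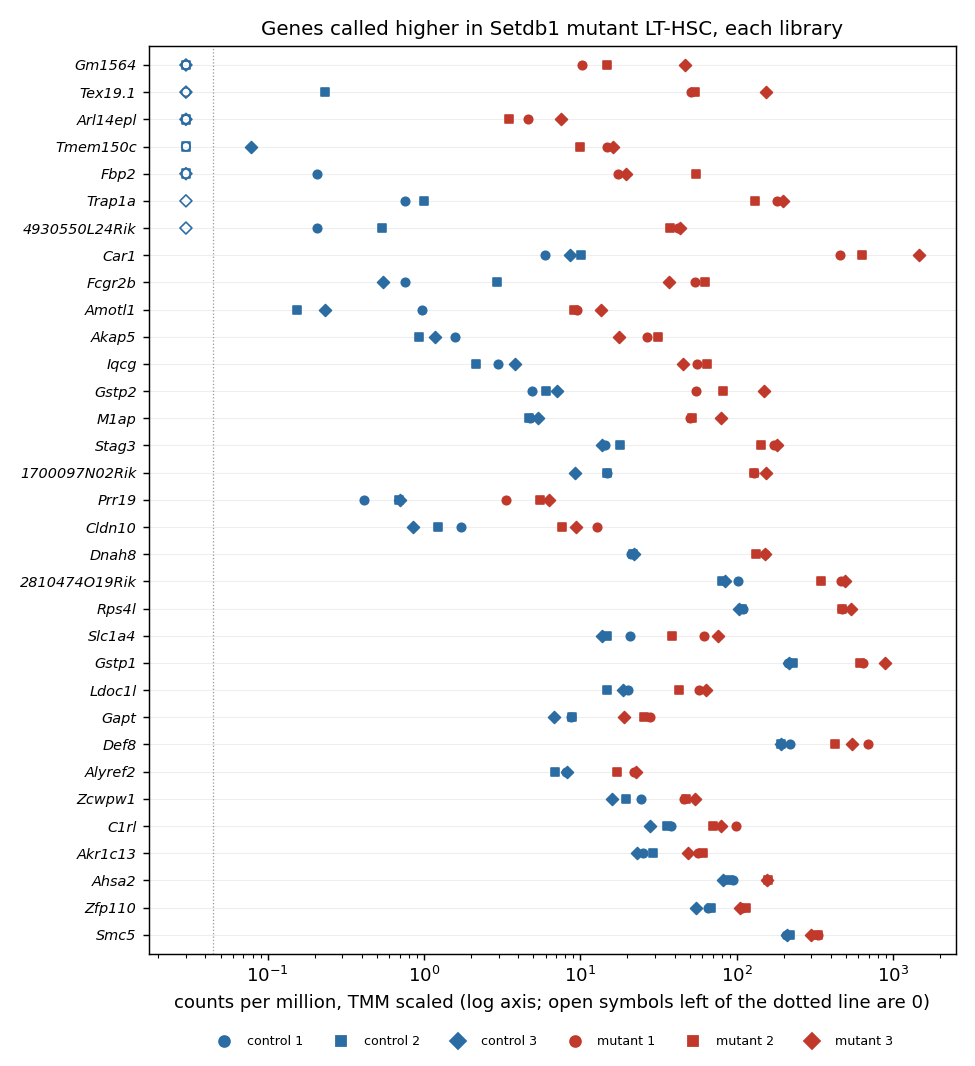
CPM of the 33 genes called higher, on a log axis, in each control (blue) and mutant (red) library, with genes ordered by fold change. No mutant overlaps a control in any gene, and the genes at the top are at or near 0 in the controls.

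Enzymes and transporters formed the next group. Car1, a carbonic anhydrase abundant in red cells, was at 5.92, 10.1 and 8.56 CPM in control libraries against 456, 637 and 1461 CPM in mutant ones, a log2 fold change of 6.70 ± 0.526 (adjusted p = 0.00201). Per length it reached a mean of 1338 TPM (transcripts scaled for length and total) in the mutants from 13.8 TPM in the controls. Its neighbour Car3 on the same chromosome showed a log2 difference of -3.77 and was not called (adjusted p = 0.187). Fbp2, the muscle form of the gluconeogenic enzyme fructose-1,6-bisphosphatase, had 3 counts over the controls and 17.5, 54.7 and 19.6 CPM in the mutants (adjusted p = 0.0111), a ratio of 386 with a 95% counting interval of 132 to 1877. The liver form Fbp1, 6353 bases away, was at 0.482, 0.615 and 2.10 CPM against 6.86, 4.42 and 4.63 CPM (adjusted p = 0.249). Gstp1, a glutathione S-transferase, rose from 214, 228 and 216 CPM to 643, 615 and 885 CPM (1.70 ± 0.15, adjusted p = 0.00412), and Gstp2, 2376 bases away, from 4.89, 6.0 and 7.08 CPM to 54.9, 81.4 and 150 CPM (4.0 ± 0.395, adjusted p = 0.00869). These 2 are close copies, and the counting may have shared reads between them. The other enzyme genes changed less. Akr1c13, an aldo-keto reductase, showed a log2 difference of 1.10 ± 0.155 (adjusted p = 0.044). Slc1a4, a carrier of neutral amino acids, rose from 20.7, 14.7 and 13.8 CPM to 61.8, 38.5 and 75.5 CPM (1.84 ± 0.279, adjusted p = 0.0479). Car1 stayed called in all 6 leave-one-out fits, Gstp1 in 4, Gstp2 and Fbp2 in 3, and Akr1c13 and Slc1a4 in 1, with adjusted p of up to 0.206 and 0.256 for the last 2.

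Several genes of membrane, scaffold and immune proteins rose. Tmem150c, a transmembrane protein, had 1 count over the controls and 14.8, 10.0 and 16.1 CPM in the mutants (adjusted p = 0.00171), a ratio of 564 with a 95% counting interval of 101 to 22305. Akap5, a scaffold that anchors protein kinase A, rose from 1.58, 0.923 and 1.17 CPM to 26.6, 31.2 and 17.7 CPM (4.34 ± 0.337, adjusted p = 0.00201). Both stayed called in all 6 leave-one-out fits. Fcgr2b, the inhibitory receptor for IgG, rose from 0.758, 2.92 and 0.545 CPM to 54.2, 62.5 and 37.0 CPM (5.18 ± 0.573, adjusted p = 0.0153). Amotl1, an angiomotin-like protein that binds YAP, rose from 0.964, 0.154 and 0.233 CPM to a mean of 10.7 ± 2.45 CPM (SD, n = 3) in the mutants (4.51 ± 0.611, adjusted p = 0.0376). Cldn10, a tight junction claudin, rose from 1.72, 1.23 and 0.856 CPM to 12.8, 7.58 and 9.34 CPM (2.95 ± 0.38, adjusted p = 0.0315). Smaller changes were those of Def8 (1.46, adjusted p = 0.0233), of C1rl, a complement-type protease (1.29, adjusted p = 0.044), and of Gapt, an adaptor that binds GRB2 (1.57, adjusted p = 0.0456). Arl14epl had 0 counts in the controls and 4.63, 3.48 and 7.54 CPM in the mutants, at least 72.7-fold higher (adjusted p = 0.0351, and 0.0536 with the replicate block). Fcgr2b, Amotl1 and Def8 stayed called in 3 leave-one-out fits, Cldn10, C1rl and Arl14epl in 2 and Gapt in 1, and the adjusted p of these 7 genes rose to 0.103 to 0.208.

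The last group of higher genes acts on chromatin, RNA and proteins. The placeholder 2810474O19Rik, which RefSeq calls Resf1 and which is known as a retroelement silencing factor and partner of SETDB1, rose from 102, 80.6 and 84.0 CPM to 463, 347 and 490 CPM (2.29 ± 0.164, adjusted p = 0.00153). Ldoc1l, a gene derived from a retrotransposon, rose from 20.2, 14.7 and 18.7 CPM to 57.5, 43.0 and 63.7 CPM (1.61 ± 0.203, adjusted p = 0.0288). Smc5, a subunit of the SMC5/6 complex, rose from 208, 218 and 211 CPM to 329, 333 and 300 CPM (0.60 ± 0.0903, adjusted p = 0.0479, and 0.0701 with the block). Zfp110, a zinc finger protein, showed a log2 difference of 0.79 ± 0.12 (adjusted p = 0.0479). Alyref2, a copy of an mRNA export adaptor, had 1.41 ± 0.209 (adjusted p = 0.046, and 0.0536 with the block), and Ahsa2, an activator of the chaperone HSP90, 0.83 ± 0.0995 (adjusted p = 0.0233). Rps4l, an annotated pseudogene and copy of the ribosomal protein gene Rps4x, rose from 110, 108 and 103 CPM to 474, 474 and 535 CPM (2.21 ± 0.0975, adjusted p = 0.000158), and its reads may be shared with that gene. The placeholders 4930550L24Rik and 2810474O19Rik and the pseudogene Rps4l were named after their values were seen. Rps4l and 2810474O19Rik stayed called in all 6 leave-one-out fits, Ldoc1l and Ahsa2 in 2, Smc5 and Alyref2 in 1 and Zfp110 in 0, with adjusted p up to 0.296 among these 7.

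The higher genes came from different starting levels. Of the 33, 9 were under 1 TPM in the controls, where 5.28% of all tested genes were, and 24 were above the mutants' median of 20.9 TPM in the mutants. The largest mutant means per length were those of Gstp1 (1992 TPM, from 649), Car1 (1338 TPM) and Rps4l (1031 TPM, from 237). Over all genes of the tables, tested or not, 13 of 8970 with at most 3 counts over the 3 controls reached at least 1 CPM in every mutant, of which 5 were called. Among the others, named after their values were seen, were Sycp3, of the synaptonemal complex that pairs chromosomes in meiosis (1.11, 1.79 and 1.73 CPM in the mutants, adjusted p = 0.124), and Ly6k, a germ cell gene of the Ly6 family (1.29, 1.16 and 6.12 CPM, adjusted p = 0.12). In the other direction, 9 of 9275 with at most 3 counts over the 3 mutants were at 1 CPM or more in every control, of which 2 were called, C6 and Kcna2.

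The genes that fell included growth factors and imprinted RNAs. Igf1, the growth factor that promotes cell growth through the IGF1 receptor, was at 45.4, 56.4 and 55.4 CPM in control libraries against 8.01 (mutant 3) to 13.8 CPM (mutant 2) in mutant ones, a log2 fold change of -2.16 ± 0.236 (adjusted p = 0.0152). Igf2, its fetal and imprinted relative, was at 151, 188 and 189 CPM against 35.4, 57.6 and 21.8 CPM (-2.21 ± 0.32, adjusted p = 0.0456). H19, the imprinted noncoding RNA beside Igf2, was at 147, 231 and 191 CPM against 71.5, 54.2 and 45.9 CPM (-1.73 ± 0.216, adjusted p = 0.0288). Meg3, an imprinted noncoding RNA of chromosome 12, was at 57.1, 58.1 and 63.2 CPM against 19.9, 7.79 and 15.1 CPM (-2.05 ± 0.306, adjusted p = 0.047). In each of these 4 genes, the highest mutant lay below the lowest control. Of 30 tested imprinted genes 3 fell (H19, Igf2 and Meg3) and none rose, 6 were lower and 0 higher at an unadjusted p under 0.05, and the median was -0.29. Dlk1 and Rian of the Meg3 cluster were not called. Dlk1, an imprinted NOTCH ligand that is also a hepatoblast marker, was at 91.0, 110 and 118 CPM against 13.9, 37.8 and 9.34 CPM (adjusted p = 0.127). Of the IGF signalling list, 9 tested, 2 fell (Igf1 and Igf2), and the median was -0.52 (-0.28 without mutant 2). Without control 1, control 3 or mutant 1, none of the 21 lower genes passed. Their adjusted p then lay between 0.0513 and 0.204, 0.0666 and 0.254, or 0.056 and 0.147, with every direction kept. Without control 2 only 1 of the 21 passed, with adjusted p of 0.026 to 0.221.

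Surface receptors fell as well. Flt3, the receptor tyrosine kinase that rises as stem cells become multipotent progenitors, was at 138, 145 and 155 CPM in control libraries against 68.3, 57.1 and 83.2 CPM in mutant ones (-1.07 ± 0.149, adjusted p = 0.044). Fcgrt, the neonatal Fc receptor, was at 48.3, 55.1 and 67.8 CPM against 20.5, 26.7 and 20.1 CPM (-1.35 ± 0.19, adjusted p = 0.044). Clec1b, the C-type lectin of platelets that binds podoplanin, was at 10.4, 14 and 15 CPM against 0.943, 2.74 and 1.02 CPM (-3.09 ± 0.452, adjusted p = 0.0456). Cd36, the scavenger and fatty acid receptor, was at 8.81, 22.7 and 11.7 CPM against 2.06, 2.32 and 1.65 CPM (-2.84 ± 0.417, adjusted p = 0.0456). Vldlr, a lipoprotein receptor (-2.75 ± 0.414, adjusted p = 0.0479, and 0.0821 with the replicate block), and Gfra2, a co-receptor of the GDNF family (-3.03 ± 0.432, adjusted p = 0.0444), fell at low levels. Kcna2, a potassium channel subunit, was at 3.65, 4.15 and 2.88 CPM in the controls and had 0 counts in all 3 mutants, at least 40.3-fold lower (adjusted p = 0.0368, and 0.0821 with the block). Tmem26, a transmembrane protein, showed a log2 difference of -2.31 ± 0.332 (adjusted p = 0.0456). Cd36 and Vldlr lost their calls in each of the 6 leave-one-out fits, with adjusted p up to 0.16 and 0.254.

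Secreted proteins and hydrolases also fell. Muc6, a gel-forming mucin, had the smallest p among the lower genes, with 15, 10.9 and 18.5 CPM against 1.80, 1.79 and 1.18 CPM (-3.22 ± 0.329, adjusted p = 0.0103). Ces2b, a carboxylesterase, was at 13.4, 10.2 and 14.1 CPM against 2.57, 2.42 and 1.88 CPM (-2.45 ± 0.278, adjusted p = 0.0174). Plbd1, a phospholipase B-like protein, was at 10.2, 11.0 and 13.3 CPM against 0.429, 1.58 and 0.785 CPM (-3.64 ± 0.456, adjusted p = 0.0288). C6, a component of the complement attack complex, was at 3.72, 5.23 and 6.77 CPM against 0 counts in all mutants, at least 58.5-fold lower (adjusted p = 0.0288, and 0.0536 with the block). Wfdc18, a secreted WAP domain protein, fell by 3.57 on the log2 scale (adjusted p = 0.032, and 0.0711 with the block), and Tac2, a tachykinin precursor, by 4.54 (adjusted p = 0.0368, and 0.0548 with the block). The rest were 3 regulators of signalling. Jun, a subunit of the AP-1 transcription factor, was at 47.6, 44.5 and 45.1 CPM against 20.1, 22.2 and 25.8 CPM (-1.01 ± 0.148, adjusted p = 0.0456, and 0.0563 with the block). Gem, a small GTPase, was at 128, 130 and 115 CPM against 72.9, 67.7 and 55.1 CPM (-0.93 ± 0.132, adjusted p = 0.0444). Plekhg1, a pleckstrin homology domain protein, fell by 1.20 (adjusted p = 0.0479, and 0.0563 with the block). All of these lost their calls without control 1, control 3 or mutant 1, as given for the lower genes above, and Tac2 was called in none of the 6 leave-one-out fits, with adjusted p up to 0.183. Of the 21 lower genes, 8 were above the controls' median of 21.9 TPM in the controls, and 7 were under 1 TPM in the mutants, where 6.87% of all tested genes were.

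**Figure D3:**
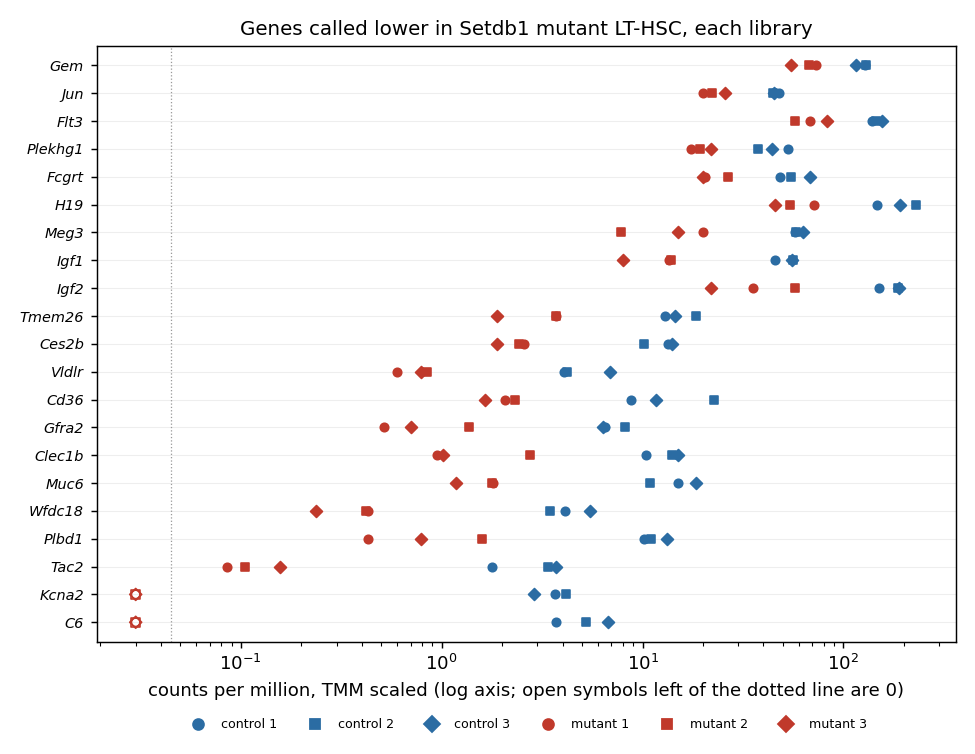
CPM of the 21 genes called lower, on a log axis, in each control (blue) and mutant (red) library, with the smallest change at the top. The mutants lie left of the controls in every gene, and C6 and Kcna2 are at 0 in all 3 mutants.

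Markers of other fetal liver cells differed between the libraries. The summed level of 20 hepatoblast markers was 1265, 2629 and 2741 CPM in controls 1 to 3 and 723, 1210 and 490 CPM in mutants 1 to 3. None of the 20 markers was called, 12 were lower at an unadjusted p under 0.05, and the median was -2.44. Afp, the fetal albumin-like protein of hepatoblasts, was at 96.8, 433 and 430 CPM in control libraries against 66.0, 173 and 4.24 CPM in mutant ones. Of 20 markers, 4 (Fga, Fgb, Fgg and Rbp4) were at 0 counts in mutant 3, and none was at 0 in the other 5 libraries. The sum of 18 macrophage markers was 2451, 2957 and 3138 CPM in the controls and 990, 3287 and 1178 CPM in the mutants, so that mutant 2 was above every control. None of the 17 tested was called, and 4 were lower at an unadjusted p under 0.05. Csf1r, the receptor of the macrophage growth factor, was at 87.5, 127 and 153 CPM against 7.89, 186 and 15.7 CPM. Vcam1, an adhesion molecule of macrophages and stroma, was at 102, 108 and 120 CPM against 0.686, 11.2 and 0.157 CPM (adjusted p = 0.151), and Cd5l, a secreted macrophage protein, at 159, 211 and 201 CPM against 2.06, 44.0 and 15.2 CPM (adjusted p = 0.223). Endothelial markers summed to 1011 to 1084 CPM in the controls and 760 to 1114 CPM in the mutants, and late red cell markers to 1687 to 3767 and 1591 to 2858 CPM. Of 14 endothelial markers tested, Fcgr2b was called higher, and 2 were lower at an unadjusted p under 0.05. Stromal markers summed to 24.2 to 36.6 and 9.82 to 25.9 CPM, and platelet markers to 241 to 407 and 112 to 254 CPM. Mature myeloid markers summed to 348 to 1456 CPM, highest in control 2, and to 501 to 669 CPM. None of these last 3 lists had a call. Afp and Csf1r were named after their values were seen. In bulk RNA, fewer cells of a type and less RNA per cell cannot be told apart.

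The lower genes were set beside these sums. In mutant 2, where the macrophage sum was the highest of the 6 libraries, Igf1 (13.8 CPM), Cd36 (2.32 CPM), Fcgrt (26.7 CPM) and Plbd1 (1.58 CPM) were each at the highest level among the mutants. They were picked for these values out of the 21 lower genes. Igf2 and Clec1b were also highest in mutant 2 among the mutants, as was the hepatoblast sum. Igf2, likewise picked for its values, had the order of the hepatoblast sum across all 6 libraries. Some other lower genes had another order, with Meg3 and Flt3 lowest in mutant 2 and H19 and Jun highest in a different mutant. All 21 were below every control in mutant 2. With the logarithm of the hepatoblast sum as a covariate, which itself follows the genotype, 6 genes were called, all 6 among the higher genes, and none of the lower genes passed (adjusted p 0.482 to 0.709). All 21 kept their direction, with a median log2 fold change of -2.03 against -2.45 without it. With the macrophage sum as the covariate, 23 genes were called, which included 16 of the 33 higher genes and 1 of the 21 lower genes, Meg3 (adjusted p = 0.0183). The adjusted p of the 21 then reached 0.157, all 21 kept their direction, and their median log2 fold change was -2.43. The part of admixed cells in the change of each lower gene was not tested beyond these values.

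**Figure D4:**
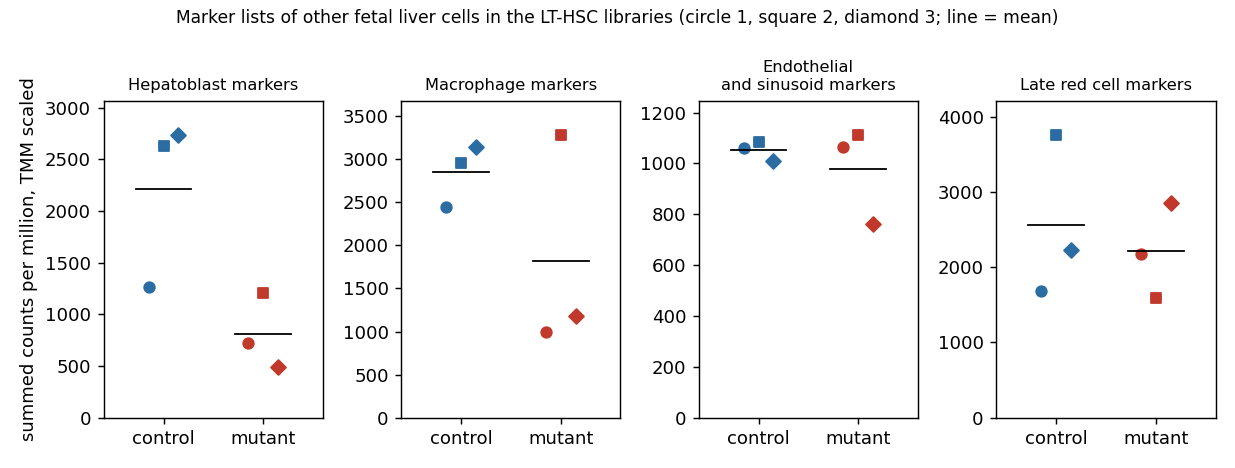
Summed CPM of 4 lists of markers of other fetal liver cells in each LT-HSC library, with controls blue, mutants red and the group mean as a line. The hepatoblast sums of the mutants lie below every control, and the macrophage sum of mutant 2 (3287 CPM) lies above every control while those of mutants 1 and 3 lie far below.

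Some changed genes lie side by side. Dnah8 and the noncoding RNA 1700097N02Rik, named after its values were seen, have annotated spans that lie 30 bases apart on chromosome 17. The latter rose from 14.9, 14.7 and 9.26 CPM to 129, 128 and 154 CPM (3.40 ± 0.21, adjusted p = 0.000824). Gstp1 and Gstp2 (chromosome 19) and H19 and Igf2 (chromosome 7, 72622 bases apart) are the other called pairs with no tested gene between them. Zcwpw1 and Stag3 lie 449893 bases apart on chromosome 5. Within 100 kb of the 33 higher genes, 107 tested genes were themselves not called and did not overlap them, and 16 of these (15%) were higher at an unadjusted p under 0.05, against 4.45% around all tested genes. Around the 21 lower genes, 6 of 44 such neighbours (13.6%) were lower, against 4.35%. Apart from Fbp1 and Tex19.2, the higher neighbours included Dzip1 beside Cldn10 (2.62, 3.61 and 6.61 CPM against 13.9, 13.7 and 17.0 CPM, adjusted p = 0.137) and Sema4f beside M1ap (log2 fold change 2.0, adjusted p = 0.358). Gpc2, which overlaps Stag3, was at 10.1, 9.61 and 9.41 CPM against 20.5, 19.4 and 17.1 CPM (adjusted p = 0.123). The library kit does not keep the strand, so reads of overlapping genes cannot be told apart. Among the lower neighbours were Wfdc17 beside Wfdc18 (-1.66, adjusted p = 0.151) and Clec7a beside Clec1b (-2.68, adjusted p = 0.275). These neighbours were picked for their values, and none was called.

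Lists of chromatin regulators gave no call other than Zfp110 among the zinc finger genes. Among 17 genes for H3K9 methyltransferases and their partners none was called, 3 were higher and 0 lower at an unadjusted p under 0.05, and the median was 0.11. These 3 were Fam208a, a core subunit of the HUSH silencing complex (35.9, 31.4 and 35.2 CPM against 70.5, 44.5 and 66.8 CPM, adjusted p = 0.192), Morc2a, an ATPase that works with HUSH (51.0, 44.4 and 52.2 CPM against 78.4, 65.6 and 93.1 CPM, adjusted p = 0.187), and Atf7ip, which stabilises SETDB1 (229, 202 and 130 CPM against 312, 295 and 245 CPM, adjusted p = 0.411). In each the mutants did not overlap the controls. None of 29 Polycomb genes (median 0.04) or of 14 genes that write or erase DNA methylation (median 0.02) was called, and both medians changed sign with upper-quartile scaling (-0.01 and -0.03). Ezh2, the Polycomb methyltransferase, was at 106 to 108 CPM in the controls and 108 to 134 CPM in the mutants, and Dnmt3a at 354 to 375 and 294 to 352 CPM. Of 325 tested zinc finger genes with Zfp symbols, a group in which many repress retroelements, 1 rose (Zfp110), 15 were higher and 13 lower at an unadjusted p under 0.05, and the median was -0.01. Zfp808 (26.6, 27.6 and 27.2 CPM against 41.7, 45.9 and 55.1 CPM, adjusted p = 0.113) and Zfp709 (adjusted p = 0.124) had smaller p than the other members that were not called. Of 28 tested clustered protocadherins, cell surface proteins of neurons whose gene clusters are known to be silenced through SETDB1, none was called (4 higher and 2 lower at an unadjusted p under 0.05, median 0.15, which was -0.23 without mutant 1 and 0.46 without mutant 3). Pcdhga12 was at 5.44, 2.46 and 5.84 CPM against 14.3, 11.5 and 12.4 CPM (adjusted p = 0.204).

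The genes of blood lineages did not give a call for stem cell identity itself. Of 37 tested HSC identity genes none was called, 7 were lower and 0 higher at an unadjusted p under 0.05, and the median was -0.13. Hoxa9, a self-renewal transcription factor, was at 132, 137 and 120 CPM in control libraries against 104, 83.5 and 79.6 CPM in mutant ones (adjusted p = 0.215). Procr, the surface receptor EPCR that marks HSC, was at 145, 167 and 138 CPM against 133, 74.8 and 76.5 CPM (adjusted p = 0.411), and Esam, an adhesion molecule of HSC, at 271, 253 and 265 CPM against 237, 196 and 177 CPM (adjusted p = 0.399). In these 3 genes mutant 1 was nearest to the controls. None of 13 Hox genes was called, 4 were lower at an unadjusted p under 0.05, and the median was -0.45 (-0.29 without mutant 2 and -0.68 without mutant 1). Of the fetal stem cell programme, 12 tested, 2 fell (H19 and Igf2) and none rose. Hmga2, a chromatin protein of fetal HSC, was at 172, 163 and 181 CPM against 121, 128 and 109 CPM, which did not pass (adjusted p = 0.124).

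Lineage lists were mixed. Of 32 cytokine receptors 1 fell (Flt3), and of 24 megakaryocyte and platelet genes 1 fell (Clec1b), with a median of -0.26 (-0.10 without mutant 3 and -0.53 without mutant 1). Pf4, platelet factor 4, was at 168, 275 and 175 CPM against 149, 42.2 and 44.0 CPM (adjusted p = 0.423). Of 11 lymphoid genes 1 fell (Flt3), and Blnk, a B cell adaptor, was at 1.38 to 1.56 CPM in control libraries against 0, 0.632 and 0 CPM in mutant ones (adjusted p = 0.46). Of 28 granulocyte and monocyte genes none was called. Csf3r, the receptor of granulocyte colony-stimulating factor, was at 87.3, 85.6 and 73.5 CPM against 37.5, 69.1 and 34.2 CPM (adjusted p = 0.393). Of 5 mast cell and basophil genes none was called, and Il1rl1, the IL-33 receptor, was at 8.40, 4.31 and 4.75 CPM against 18.1, 12.7 and 21.4 CPM (adjusted p = 0.151).

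Red cell lists gave no call other than Car1. Of 23 genes of the red cell membrane and of maturation Car1 was the 1 called, and the median was 0.16 (-0.23 without mutant 3). Aqp1, the red cell water channel, was at 84.6, 55.4 and 73.1 CPM against 24.1, 34.6 and 39.7 CPM (adjusted p = 0.145). None of 14 erythroid transcription factors (median 0.08), 20 genes of haem synthesis and iron (median 0.08) or 6 globin genes (median -0.55) was called. Each of these medians changed sign with 1 library left out, to -0.25 and -0.30 without mutant 3 for the factors and haem synthesis, and to 0.08 without control 2 for the globins. Gata1, the master factor of red cells, was at 108, 113 and 115 CPM in control libraries against 90.8, 191 and 232 CPM in mutant ones, with overlap between the groups (adjusted p = 0.575).

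**Figure D5:**
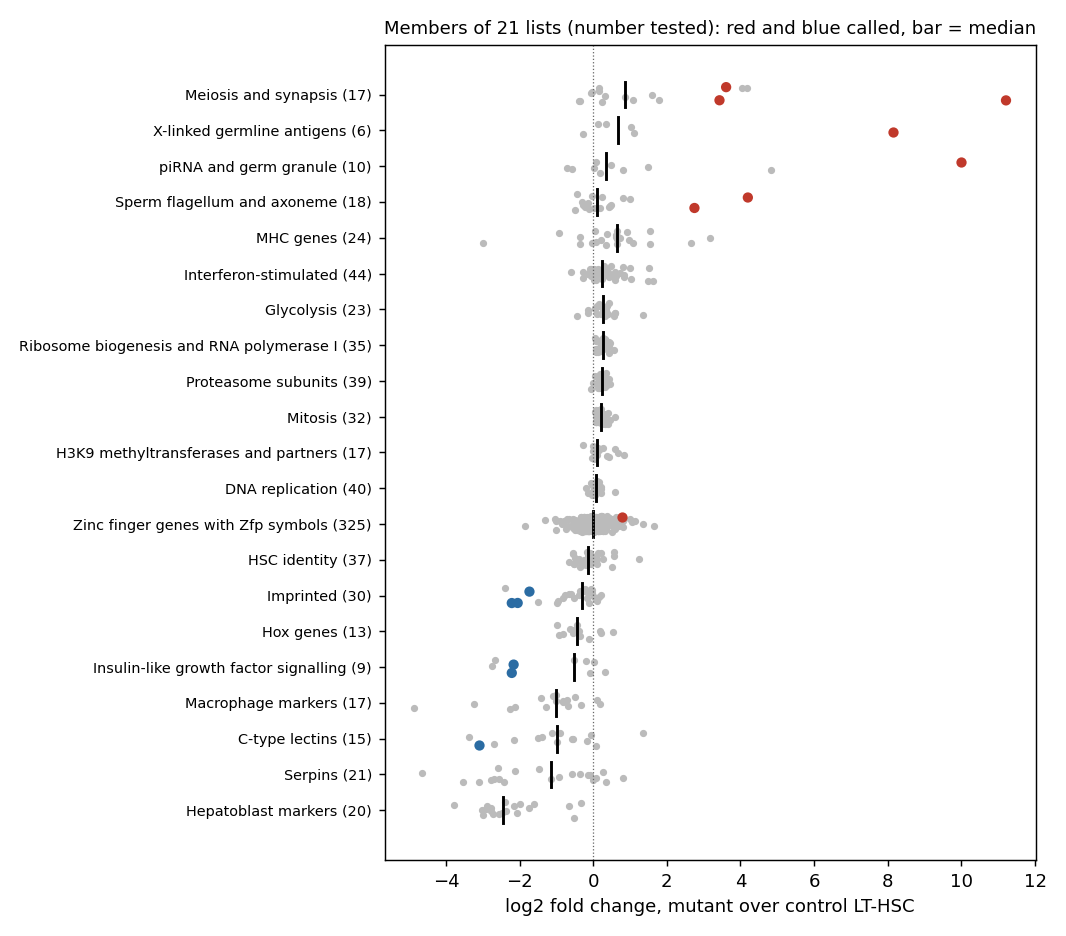
Log2 fold changes of the tested members of 21 lists, with genes called higher in red, called lower in blue, those not called in grey and the list's median as a bar. In the meiosis, imprinted, insulin-like growth factor, C-type lectin and zinc finger lists, members that were not called lie further from 0 than called ones, and the medians run from 0.86 (meiosis and synapsis, 0.18 without mutant 3) to -2.44 (hepatoblast markers).

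The lists of antigen presentation and of antiviral genes gave no call. None of 24 tested MHC genes was called, but 10 were higher and 1 lower at an unadjusted p under 0.05, and the median was 0.64 (0.37 without mutant 1). H2-Q7, a nonclassical class I gene, was at 3.86, 2.69 and 2.80 CPM in control libraries against 26.5, 23.4 and 9.03 CPM in mutant ones (adjusted p = 0.0663), and H2-Q9 at 0.758, 0.846 and 2.88 CPM against 21.2, 9.48 and 9.34 CPM (adjusted p = 0.124). These are near copies, and the counting may have shared reads between them. H2-T23, a ligand of inhibitory receptors on natural killer cells, was at 163, 131 and 145 CPM against 247, 253 and 185 CPM (adjusted p = 0.187). Of 44 interferon-stimulated genes none was called and none passed an unadjusted p of 0.05 in either direction, with a median of 0.25. That median was -0.29 without mutant 2 and 0.05 with the replicate block. Oas3, an antiviral sensor, was at 23.3, 8.07 and 9.80 CPM against 24.6, 90.8 and 13.1 CPM (adjusted p = 0.541), so that mutant 2 alone was far above the controls, as was Zbp1, a sensor of Z-form nucleic acid (13.2 CPM in mutant 2, at most 3.23 CPM in the controls, adjusted p = 0.62). Of 25 nucleic acid sensing genes none was called, and Aim2, a cytosolic DNA sensor, was at 31.6, 29.3 and 21.7 CPM against 49.0, 56.7 and 41.9 CPM (adjusted p = 0.187).

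Lists of growth and biosynthesis had small positive medians and no call other than Rps4l. Of 35 ribosome biogenesis genes 8 were higher and 0 lower at an unadjusted p under 0.05 (median 0.26). The same counts were 9 and 0 of 39 proteasome subunits (0.24), 8 and 0 of 35 aminoacyl-tRNA synthetases (0.24), 6 and 1 of 17 one-carbon and serine genes (0.24), 5 and 0 of 23 glycolysis genes (0.26) and 3 and 0 of 32 mitosis genes (0.20). None of these members was called, and 4.68% of all tested genes were higher by the same measure. Without mutant 2 these 6 medians were 0.15, 0.11, 0.15, 0.14, 0.13 and 0.04, in the same order. Bop1, a factor of large ribosomal subunit assembly, was at 144, 128 and 129 CPM in control libraries against 159, 212 and 179 CPM in mutant ones (adjusted p = 0.309). Slc16a3, the lactate exporter, was at 47.0, 53.7 and 51.6 CPM against 85.5, 120 and 181 CPM (adjusted p = 0.116), and Pfkp, a phosphofructokinase of glycolysis, at 53.9, 60.8 and 59.7 CPM against 96.5, 84.9 and 80.0 CPM (adjusted p = 0.147). Plk1, a mitotic kinase, was at 177 to 192 CPM against 202, 322 and 316 CPM (adjusted p = 0.342). DNA replication genes (40 tested, median 0.08), nuclear genes of the respiratory complexes (88, median 0.11) and mitochondrial ribosomal proteins (77, median 0.14) had no call, and their medians without mutant 2 were -0.04, 0.01 and 0.03. Of 82 cytosolic ribosomal protein genes 1 was called, Rps4l, and Rps27 was at 128, 97.7 and 114 CPM against 55.7, 68.1 and 68.2 CPM (adjusted p = 0.0842).

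Lipid and stress pathways gave few calls. None of 23 cholesterol synthesis genes (median 0), 14 genes of fatty acid synthesis and desaturation (0.02) or 18 of fatty acid oxidation (0.03) was called. Scd1, the stearoyl-CoA desaturase, was at 28.5, 19.6 and 37.0 CPM against 9.26, 17.2 and 11.5 CPM (adjusted p = 0.274). Of 27 antioxidant response genes 1 rose (Gstp1), and of 19 glutathione S-transferases 2 rose (Gstp1 and Gstp2), while 5 were lower at an unadjusted p under 0.05, such as Gsta4 (16.5, 14.1 and 18.8 CPM against 8.83, 7.79 and 7.77 CPM, adjusted p = 0.145). Of 23 immediate early and stress genes 1 fell (Jun). None of 30 p53 target and apoptosis genes was called (median -0.03), nor any of 25 genes of the unfolded protein response (median 0.19, and 0.03 without mutant 2), in which Hyou1, a chaperone of the endoplasmic reticulum, was at 45.0, 41.4 and 35.2 CPM against 70.1, 85.1 and 57.3 CPM (adjusted p = 0.172).

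Several families had negative medians. None of 21 serpins was called, 9 were lower and 0 higher at an unadjusted p under 0.05, and the median was -1.14, and of 16 apolipoproteins none was called and 7 were lower and 0 higher, with a median of -1.84. Some members of both families are in the hepatoblast list, and with the hepatoblast sum as a covariate the medians were 0.05 and 0.20. With the macrophage sum instead they were -1.27 and -1.12. Of 15 C-type lectins 1 fell (Clec1b), and 5 were lower and 1 higher at an unadjusted p under 0.05. Their median was -0.97 (-0.28 with the hepatoblast sum and -0.65 with the macrophage sum as a covariate). Of 13 cathepsins none was called and the median was -0.48 (0.25 with the hepatoblast sum, -0.16 with the macrophage sum, and -0.87 without mutant 2). Ctsh, a lysosomal protease, was at 44.7, 58.3 and 56.7 CPM against 18.4, 31.6 and 13.7 CPM (adjusted p = 0.174). Of 30 genes of adhesion and homing, 6 were lower and 0 higher at an unadjusted p under 0.05, Vcam1 included, and none was called. Signalling lists of the TGF-beta (24 tested), Wnt (26) and Notch (18) pathways had no call, with medians of 0.05, -0.18 and -0.22, which were -0.05, -0.43 and -0.25 without mutant 3 and 0.03, -0.02 and -0.07 without control 3. Dkk1, a secreted Wnt antagonist, was at 12, 11.7 and 9.65 CPM against 1.03, 5.48 and 1.57 CPM (adjusted p = 0.309). Of 11 ephrins and their receptors none was called, 5 were lower and 1 higher by that measure, and Efna1 was at 26.2, 29.9 and 26.3 CPM against 16.6, 8.95 and 9.97 CPM (adjusted p = 0.155). Among 225 solute carriers 1 rose (Slc1a4). Slc25a31, the germline carrier of ADP and ATP, was at 0.344, 0.0769 and 0.311 CPM against 2.92, 3.58 and 2.98 CPM (adjusted p = 0.0551), and Slc1a2, a glutamate carrier, at 1.17, 2.15 and 1.40 CPM against 0, 0 and 0.0785 CPM (adjusted p = 0.077).

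The same genes were mostly changed in MPP. Of the 54 genes called in LT-HSC, 52 could be tested in MPP, and 49 (90.7% of the 54) were called there in the same direction. MPP had 4337 of 12392 genes called (35%), so these 49 were 1.13% of its calls. The MPP libraries came from 20000 sorted cells each and the LT-HSC libraries from 500 to 1000. The part of cell number in the unlike counts of calls, and in the test of the difference below, was not tested. Alyref2, Gapt and Gem were not called in MPP, and Ces2b and Tac2 were not tested there. Marker sums of other liver cells differed by genotype in MPP as well. The hepatoblast sum was 596 to 883 CPM in MPP controls and 194 to 216 CPM in MPP mutants. The macrophage sum was 2257 to 3048 and 842 to 1078 CPM, while the late red cell sum was higher in the mutants (676 to 1839 and 2507 to 4008 CPM). The part of admixed cells in the shared calls was not tested. The genotype effect itself differed between LT-HSC and MPP in 50 of 13249 genes (0.377%), by the interaction over all 12 libraries, and 5 of the 54 were among them. Fcgr2b showed a log2 difference of 5.18 in LT-HSC and 1.97 in MPP, Gapt 1.57 and 0.11, Gem -0.93 and 0.17, Ahsa2 0.83 and 2.66, and Smc5 0.60 and 1.17. For the other 49 genes no difference between the cell types passed the test.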

How the data were processed

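RNA-seq was measured in 12 libraries, of which the 6 of LT-HSC were compared. Per the submitters' processing notes, STAR, RSEM and the mm10 build were used, with versions not given in the sources used here. Per the file headers, the authors deposited RSEM expected counts per gene (reads shared between similar genes are divided, and 7.13% to 7.76% of values were fractional) and TPM, which is scaled by length. TPM was used only to describe levels, and no test was run on it.

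Expected counts were rounded and tested with edgeR 4.0.16 (quasi-likelihood, TMM scaling, filterByExpr with a minimum count of 10 and total of 15, R 4.3.3), with Benjamini-Hochberg adjustment over 12847 genes and a threshold of 0.05. CPM used the TMM-scaled totals of the 6 libraries, and the gate genes Slamf1 and Cd48 and the marker sums of MPP those of all 12. The fit was tested on simulated data. Folds against a group at 0 used a floor of 3 counts over the group. Intervals and floors cover counting error only. Coordinates come from RefSeq's GRCm38.p6, which matched 23948 of the 24054 genes. Alternatives were RLE and upper-quartile scaling, no filter, DESeq2 1.42.0, the replicate block, a joint fit of all 12 libraries, leaving out each library, and 2 marker sums as covariates (log2 of the sum plus 1 CPM).

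The titles number the replicates 1 to 3 in both groups. Deviations from the group means correlated across genes at r = 0.111, 0.173 and 0.192 for same-numbered libraries and at -0.242 to 0.069 for the others. These correlations are weak, and the meaning of a number is not given in the labels, so whether the numbers pair the libraries is open. A number does not stand for 1 embryo across cell types. Ddx3y was read in LT-HSC control 2 and was at 0 in MPP control 2. The main fit had no block, and the blocked p is given where it changes a call. Libraries of a group differed by far more than counting noise (chi-square per gene 13.3 to 47.2).

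Named genes were Setdb1, the called genes without placeholder symbols, pseudogenes or sex markers, and up to 4 tested members with the smallest p in a list, except where the text says otherwise. The members and lists were chosen with earlier results of these data known.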

Additional observations from a re-analysis of the deposited data

Results flagged for a closer look

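In 5 of the 54 called genes the genotype effect differed between LT-HSC and MPP by the test of the interaction (edgeR, over all 12 libraries). The log2 difference, LT-HSC minus MPP, was 3.15 ± 0.566 (SE) for Fcgr2b (adjusted p = 0.0441), which rose more in LT-HSC than in MPP. For Gapt, which rose in LT-HSC and was not called in MPP, it was 1.40 ± 0.247 (adjusted p = 0.0417). It was -1.16 ± 0.211 for Gem (adjusted p = 0.0441), which fell in LT-HSC and was not called in MPP. It was -1.90 ± 0.14 for Ahsa2 (adjusted p = 0.000165) and -0.63 ± 0.102 for Smc5 (adjusted p = 0.0288), which rose less in LT-HSC than in MPP. Over all tested genes, the 50 genes called by the interaction became 1 to 42 with 1 MPP library left out. Whether these 5 genes stayed called in those fits is not given here.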

How the results depend on the processing

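The 54 calls (33 higher, 21 lower) became 52 with RLE scaling, 47 with upper-quartile scaling and 67 without the filter on low counts. They became 280 with DESeq2 (145 higher, 135 lower) and 250 with the joint fit of all 12 libraries (133 and 117), and the cause of these larger counts was not tested. All 54 genes were called in both of these fits. With the hepatoblast sum as a covariate 6 were called (6 and 0), and with the macrophage sum 23 (20 and 3). With the replicate block, which pairs same-numbered libraries, 48 genes were called (32 and 16), and 12 of the 54 lost their call (adjusted p 0.0536 to 0.0821). Leaving out 1 library at a time gave 13 to 102 calls, 13 to 33 higher and 0 to 69 lower. The sign of all 54 genes was kept under each of these alternatives.

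The 50 genes with a different genotype effect in LT-HSC and MPP became 43 with RLE scaling, 41 with upper-quartile scaling, 53 with the replicate block, 87 without the filter, 341 with DESeq2 and 1 to 885 with 1 library left out. Among genes named but not called, Cd48 changed sign without mutant 2 (log2 fold changes of -0.17 to 0.70 with 1 library left out), Csf1r with the hepatoblast (1.08) and macrophage (0.14) sums as covariates, and Afp with the hepatoblast sum (1.42), of which it is itself a member. Medians of lists with few or no calls moved with single libraries, as given beside them. Depth limits the fold of a gene at 0 counts in a group to a lower bound, set by the floor of 3 counts over the group.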
